A study of Mus musculus with 4 samples.

Results

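Atf4 and the genes around it in the integrated stress response and in serine and one-carbon synthesis were followed in mouse blood stem and progenitor cells after knockdown of the microRNA miR-99. The 10 genes are Atf4, Ddit3, Ddit4, Trib3, Chac1, Asns, Psat1, Phgdh, Shmt2 and Mthfd2, named as a list and found by symbol among 45232 gene rows. All 10 had a row, and 9 passed the filter on low counts, leaving Chac1 untested. The cells were LSK cells (no lineage markers, with Kit and Sca-1) that carried GFP, sorted 3 months after mice had received long-term stem cells with either the miR-99 knockdown (miR-99 KD) or a scrambled control (Scr). Each group had 2 mice and 2 libraries, so mice of both groups were transplant recipients and all cells carried a GFP-marked construct. The sources used here do not give the strain or age of the mice or the design of the knockdown construct.

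ATF4 is a transcription factor made when the translation factor eIF2 is phosphorylated: most translation falls, while the Atf4 mRNA, which carries upstream reading frames, is translated better. Kinases that sense haem loss, double-stranded RNA, misfolded protein in the endoplasmic reticulum (ER) and missing amino acids phosphorylate eIF2, and ATF4 then turns on genes for amino acid synthesis, tRNA charging and the feedback that ends the response. Serine made from glycolysis by PHGDH, PSAT1 and PSPH feeds one-carbon units to folate through SHMT2 and MTHFD2 in mitochondria and through SHMT1 and MTHFD1 in the cytosol. Haematopoietic stem cells are known for a low rate of protein synthesis and for an active ATF4 response to stress. Because much of ATF4's control is by translation, its mRNA level is only one part of its activity.

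The knockdown is named for miR-99, which belongs to a family of microRNAs with one seed, the bases that pair with a target. The labels name miR-99 without saying which member. Notes pasted in the files name the knockdown libraries Zip99a-2 and Zip99a-1, a name that they do not explain. The mature sequences are shown from RefSeq (GRCm38.p6) with bases 2 to 8, the seed, in capitals.
mmu-miR-99a-5p: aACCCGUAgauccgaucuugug
mmu-miR-99b-5p: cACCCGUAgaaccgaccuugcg
mmu-miR-100-5p: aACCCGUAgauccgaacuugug
All 3 share the seed ACCCGUA. The 7 letters that pair with it, TACGGGT, were found 0 times in the longest coding transcript of each of the 10 genes in GENCODE M21, coding and untranslated parts together. Their other transcripts were not searched, and the share of all genes with these letters was not counted, so the result cannot be read against a background.

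ATF4 binds with C/EBP factors to an element whose letters are TGATGNAA. It was searched on both strands in the RefSeq promoter windows, 250 bases before and 50 after the start, of all 10 genes (11 windows, since Psat1 has 2 starts). The windows of 3 genes, Asns, Chac1 and Trib3, held it, against 3.97% of 32851 windows of the same length, and it is in capitals in the stretches below. The genes were listed as an ATF4 programme, so this is a description of where the letters lie and not an independent result, and elements outside the window were not searched. Each stretch is given on the strand of its gene, and in Chac1 and Trib3 the element reads on the opposite strand, as TGATGCAA and TGATGTAA.
Asns, chr6:7693210-7693278, minus strand: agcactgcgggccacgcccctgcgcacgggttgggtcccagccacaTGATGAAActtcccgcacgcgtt
Chac1, chr2:119351003-119351102, plus strand: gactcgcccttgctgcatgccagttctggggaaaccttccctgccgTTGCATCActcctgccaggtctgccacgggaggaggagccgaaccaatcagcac
Trib3, chr2:152344028-152344057, minus strand: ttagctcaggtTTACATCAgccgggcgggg
These 3 genes, which share the element, did not share a pattern of RNA: Asns was high in every library and higher in both miR-99 KD libraries, Trib3 was low and mixed, and Chac1 was near 0.

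The libraries held 27295197 to 32350590 gene counts and were sequenced to a similar depth. No gene in the whole table passed the quasi-likelihood test of edgeR, adjusted by Benjamini and Hochberg's method at 0.05: 0 of 15320 genes (0%) were called, with a lowest adjusted p of 0.191. Before adjustment, 2390 genes (15.6%) had p under 0.05, of which 915 were higher in miR-99 KD (5.97%) and 1475 lower (9.63%). DESeq2, run as an alternative, called 887 (5.79%), and limma-voom called 0. With 2 libraries in each group an exact permutation test of a single value cannot pass 0.05, so none was run. The files also carry pasted notes that number the libraries otherwise than their labels: the gene total of Scr 1 stands under the name Scr-2, and a gene total under the name Scr-1, 29793890, is that of none of the 4 libraries. The noted totals that match a library stand under a Scr name for Scr and a Zip99a name for miR-99 KD. No noted total is that of Scr 2, so the notes do not bear on its group. Labels are used throughout.

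None of the 9 genes tested passed edgeR, and 2 of them, Asns and Ddit3, passed DESeq2, both higher in miR-99 KD, where 1.66% of all genes tested passed in that direction. At an unadjusted edgeR p under 0.05 there were 3 higher, Ddit3, Asns and Mthfd2, and 1 lower, Phgdh. By this measure 5.97% of all genes tested were higher and 9.63% lower. The groups did not overlap in 6 genes, where this was so for 50.5% of all genes tested. In 5 of them, Atf4, Ddit3, Ddit4, Asns and Mthfd2, miR-99 KD was the higher group (24.5% of all genes), and in 1, Phgdh, the lower (26.0%). The groups overlapped in Trib3, Psat1 and Shmt2, and in the untested Chac1.

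**Figure D1:**
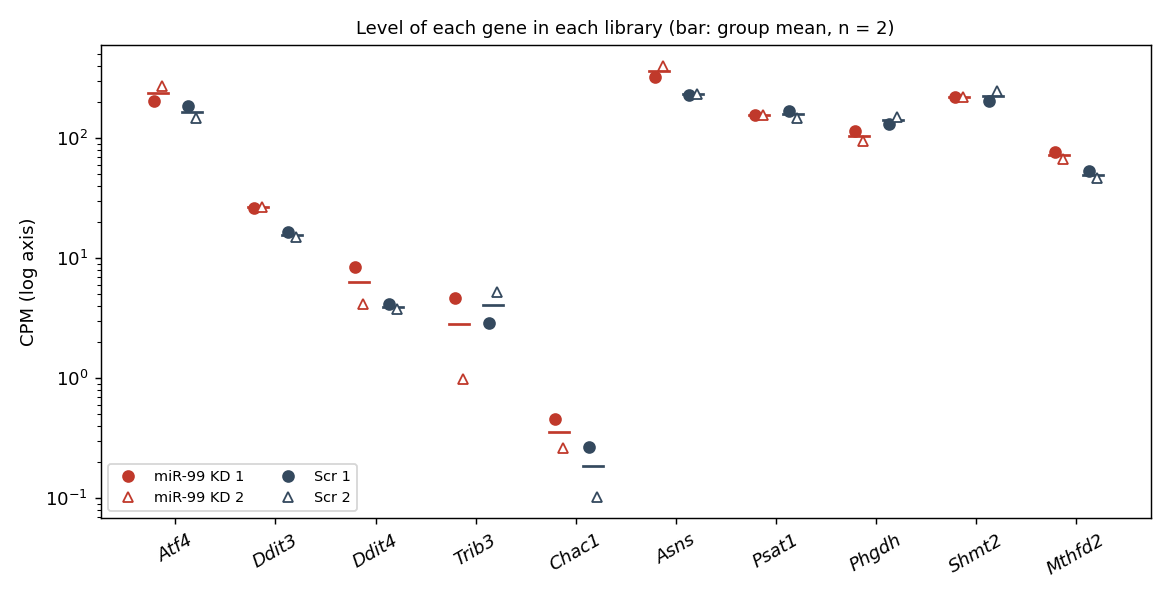
Level of each of the 10 genes in each library, in CPM (counts scaled to the TMM-adjusted library size) on a log axis, with miR-99 KD left of Scr and a bar at each group mean (n = 2). Asns, Atf4, Shmt2, Psat1 and Phgdh lie near or above 100 CPM, and Chac1 lies under 1 CPM in all 4 libraries.

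Per length of transcript, Asns was the most abundant of the 10, at a mean of 108 CPM per kb over the 4 libraries. Atf4 followed at 85.4 CPM per kb, Shmt2 at 71.2, Phgdh at 49.1 and Psat1 at 37.0. Mthfd2 stood at 17.4 and Ddit3 at 12.3 CPM per kb. Ddit4, Trib3 and Chac1 were scarce, at 2.91, 1.62 and 0.167 CPM per kb. Asns and Atf4 stood above 97.1% and 95.9% of all genes tested on this scale, whereas Ddit4 and Trib3 stood above 39.1% and 30.7%. The mRNAs of Asns, Shmt2, Phgdh and Psat1 were thus abundant in the same libraries in which the stress-induced Trib3 and Chac1 mRNAs were sparse. The stress-induced Ppp1r15a, described below, was not sparse, at a mean of 100 CPM per kb. Exonic length here is the union of annotated exons, so levels of genes with many isoforms are understated.

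Atf4 (ENSMUSG00000042406), the transcription factor itself, had 203 and 271 CPM in miR-99 KD 1 and 2 and 184 and 148 CPM in Scr 1 and 2. Both miR-99 KD libraries were above both Scr libraries, but miR-99 KD 1 was nearer to Scr 1 than to miR-99 KD 2. The log2 difference was 0.51 ± 0.20 (SE, 2 libraries a group), with an edgeR adjusted p of 0.323 and a DESeq2 adjusted p of 0.156. It was 0.71 when miR-99 KD 1 was left out and 0.29 when miR-99 KD 2 was.

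Upstream of Atf4, none of the mRNAs of the 4 eIF2 kinases passed a test. Eif2ak1, the haem-sensing kinase and the most abundant of them, had 174 and 152 CPM in miR-99 KD libraries and 147 and 134 CPM in Scr. Its groups did not overlap, but the log2 difference was 0.22 ± 0.14 (SE), with an edgeR adjusted p of 0.495. Eif2ak3, the ER stress kinase PERK, had a log2 difference of 0.15, and Eif2ak2, the double-stranded RNA kinase PKR, and Eif2ak4, the amino acid sensor GCN2, differed by -0.11 and -0.03 with groups that overlapped. Impact, a protein that restrains GCN2, had 23.7 and 28.5 CPM in miR-99 KD libraries and 37.1 and 34.0 CPM in Scr, with an edgeR adjusted p of 0.343.

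The feedback phosphatase subunits, which bring a phosphatase to eIF2 and so end the response, lay in opposite directions. Ppp1r15a, the stress-induced subunit GADD34 and itself an ATF4 programme gene, had 270 and 240 CPM in miR-99 KD libraries and 324 and 347 CPM in Scr. Ppp1r15b, the constitutive subunit, had 282 and 339 CPM in miR-99 KD libraries and 206 and 232 CPM in Scr. The groups of each gene did not overlap, and neither gene passed a test, with edgeR adjusted p of 0.290 and 0.260 and DESeq2 adjusted p of 0.119 and 0.066. Within a library, where scaling cancels, the ratio of Ppp1r15b to Ppp1r15a per kb was 0.549 and 0.744 in miR-99 KD and 0.334 and 0.351 in Scr, a pair compared after its values were seen. Eif2b1, a subunit of the exchange factor eIF2B that phosphorylated eIF2 blocks, had 182 and 223 CPM in miR-99 KD libraries and 142 and 125 CPM in Scr, and passed DESeq2 (adjusted p = 0.027) but not edgeR (adjusted p = 0.233). Of the 16 genes of the kinase, eIF2B and phosphatase list, 7 were higher with groups apart, 3 lower and 6 overlapped, where 24.5% of all genes tested were higher and 26.0% lower by this measure. The median log2 difference was 0.12, against 0.02 over all genes tested.

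Ddit3 (ENSMUSG00000025408), which encodes CHOP, a factor that ATF4 induces and that promotes cell death in lasting stress, had 26.2 and 26.7 CPM in miR-99 KD libraries and 16.5 and 14.9 CPM in Scr. The libraries of each group lay close together and the groups were well apart. The log2 difference was 0.75 ± 0.19 (SE, 2 libraries a group), a fold of 1.69 with a 95% interval of 1.20 to 2.37, with an edgeR adjusted p of 0.229 and a DESeq2 adjusted p of 0.037. With each library left out, the estimate ran from 0.66 to 0.80, the narrowest range of the 9 genes. Exons of Ddit3 share 68 bases with the opposite-strand gene Mars and 13 with the opposite-strand gene Gm4189. Those of Shmt2 share 32 bases with the opposite-strand gene Ndufa4l2. The sources used here do not say whether counting used strand. The ratio of Ddit3 to Atf4 per kb within a library overlapped between the groups, at 0.178 and 0.135 in miR-99 KD and 0.123 and 0.139 in Scr.

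The other stress effectors passed neither test. Ddit4, an inhibitor of the growth kinase mTORC1 that stress and glucocorticoids induce, had 8.38 and 4.18 CPM in miR-99 KD libraries and 4.12 and 3.74 CPM in Scr. Only miR-99 KD 1 stood out, since miR-99 KD 2 was close to Scr 1, and the log2 difference of 0.67 ± 0.43 (SE) became 0.09 when miR-99 KD 1 was left out and 1.09 when miR-99 KD 2 was.

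Trib3, a pseudokinase that ATF4 and CHOP induce and that damps ATF4 in turn, had 123 and 26 counts in miR-99 KD and 97 and 152 counts in Scr, or 4.66 and 0.979 CPM against 2.90 and 5.22 CPM. The lowest and the second highest value were both in miR-99 KD, and its log2 difference of -0.52 ± 0.79 (SE) turned to 0.20 without miR-99 KD 2. Chac1, an enzyme that breaks down glutathione and a sensitive ATF4 target, had 12 and 7 counts in miR-99 KD and 9 and 3 counts in Scr. These counts are too few to read a difference from. Atf5, a factor related to ATF4, was likewise near 0, at 0.531 and 0.301 CPM in miR-99 KD and 0.538 and 0.343 CPM in Scr, and Atf3, an early stress factor, varied more within the groups than between them, at 11.5 and 4.07 CPM in miR-99 KD and 12.5 and 5.53 CPM in Scr.

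Asns (ENSMUSG00000029752), asparagine synthetase, the classic gene of the amino acid response, had 324 and 397 CPM in miR-99 KD libraries and 229 and 233 CPM in Scr. The Scr libraries were nearly equal, and both miR-99 KD libraries were higher. The log2 difference was 0.64 ± 0.15 (SE, 2 libraries a group), a fold of 1.56 with a 95% interval of 1.19 to 2.04, with an edgeR adjusted p of 0.227 and a DESeq2 adjusted p of 0.0069. Leaving out miR-99 KD 1 gave 0.78 on the log2 scale, and leaving out miR-99 KD 2 gave 0.49.

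**Figure D2:**
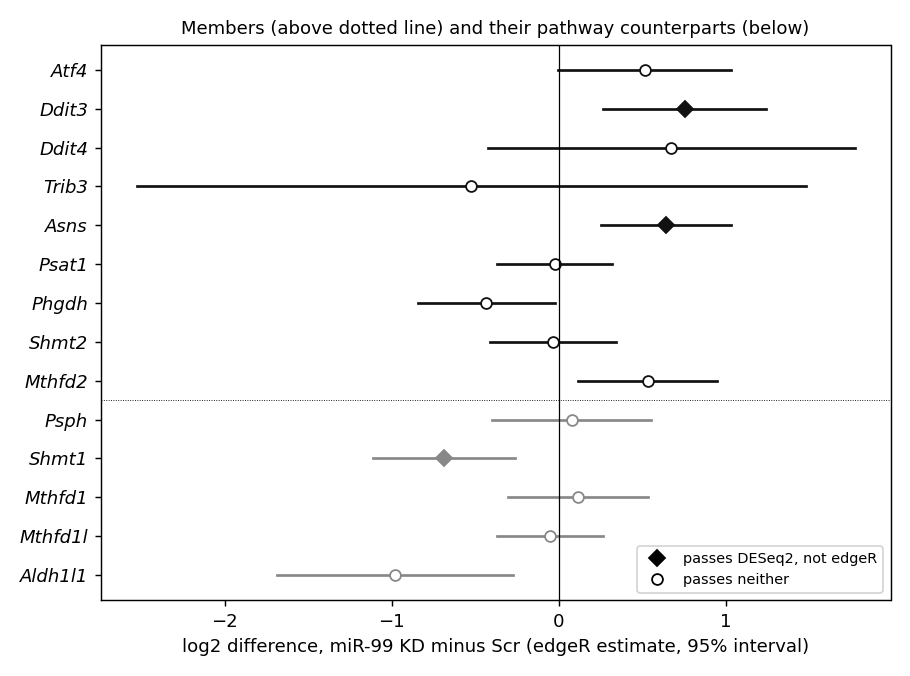
Estimated log2 difference, miR-99 KD minus Scr, with its 95% interval from edgeR, for the 9 genes tested (above the dotted line) and for 5 counterparts in serine and folate metabolism (below it). Diamonds mark genes that passed DESeq2 (Ddit3, Asns and Shmt1), and no gene passed edgeR.

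None of the serine synthesis enzymes passed a test. Phgdh, the first enzyme, had 114 and 93.8 CPM in miR-99 KD libraries and 131 and 150 CPM in Scr. Both miR-99 KD libraries were below both Scr libraries. The log2 difference was -0.43 ± 0.16 (SE, 2 libraries a group), a fold of 0.741 with a 95% interval of 0.557 to 0.984, with an edgeR adjusted p of 0.307 and a DESeq2 adjusted p of 0.193. Psat1, the second enzyme, had 157 and 156 CPM in miR-99 KD libraries and 169 and 148 CPM in Scr. Its miR-99 KD libraries lay between the Scr libraries, and its log2 difference was -0.02 with a 95% interval of -0.37 to 0.32. Psph, the last enzyme, had 49.6 and 59.2 CPM in miR-99 KD libraries and 56.7 and 46.4 CPM in Scr, with a log2 difference of 0.08. Summed over the 3 enzymes, the level was 320 and 309 CPM in miR-99 KD and 357 and 345 CPM in Scr.

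Phgdh is the only one of the 10 genes whose longest coding transcript matches other genes at 95% identity or more over at least 100 bases. It has 7 copies of over 1500 bases, processed pseudogenes, of which 4 have a row in the files. Gm7901, 98.7% identical over 1597 bases, had 1464 and 1094 counts in miR-99 KD and 2113 and 2074 counts in Scr. That is 32.7% and 30.5% of the counts of Phgdh and Gm7901 together in miR-99 KD, and 32.6% and 32.2% in Scr, nearly the same share in every library. Reads of the gene and of the copy cannot be told apart where the letters are equal, and reads with several alignments were set aside, so the level of Phgdh is uncertain. Counted together, they had 170 and 135 CPM in miR-99 KD libraries and 194 and 221 CPM in Scr, with the groups apart as for Phgdh alone.

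Shmt2, Mthfd2, Mthfd1l and Aldh1l2, of the mitochondrial folate pathway, did not pass edgeR or DESeq2, which gave no adjusted p for Aldh1l2. Mthfd2, which oxidises one-carbon folate in mitochondria and is high in dividing cells, had 76.4 and 67.3 CPM in miR-99 KD libraries and 53.1 and 46.3 CPM in Scr. The groups did not overlap. The log2 difference was 0.53 ± 0.16 (SE, 2 libraries a group), a fold of 1.45 with a 95% interval of 1.08 to 1.93, with an edgeR adjusted p of 0.259 and a DESeq2 adjusted p of 0.088. Shmt2, which takes the one-carbon unit from serine in mitochondria, had 219 and 219 CPM in miR-99 KD libraries and 203 and 245 CPM in Scr. Its miR-99 KD libraries again lay between the Scr libraries, and its 95% interval ran from -0.41 to 0.34 on the log2 scale. Mthfd1l, the next mitochondrial step, had 122 and 129 CPM in miR-99 KD libraries and 131 and 130 CPM in Scr, a log2 difference of -0.05. Aldh1l2, the mitochondrial enzyme that burns one-carbon folate to carbon dioxide, was near 0, with 11 and 11 counts in miR-99 KD and 8 and 0 counts in Scr.

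Of the cytosolic counterparts, Shmt1 passed DESeq2. Shmt1, the cytosolic serine hydroxymethyltransferase, had 68.2 and 59.2 CPM in miR-99 KD libraries and 93.0 and 112 CPM in Scr. Its log2 difference was -0.69 ± 0.17 (SE, 2 libraries a group), a fold of 0.621, and it passed DESeq2 (adjusted p = 0.022) but not edgeR (adjusted p = 0.227). DESeq2 called 4.13% of all genes lower. Aldh1l1, the cytosolic partner of Aldh1l2, had 7.88 and 6.06 CPM in miR-99 KD libraries and 12.4 and 15.1 CPM in Scr, with an edgeR adjusted p of 0.247. Mthfd1, the cytosolic enzyme of several folate steps, overlapped between the groups, at 427 and 438 CPM in miR-99 KD and 351 and 449 CPM in Scr.

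Ratios within a library do not depend on how libraries are scaled, and the pairs below were chosen after their values were seen. The ratio of mitochondrial Shmt2 to cytosolic Shmt1 per kb averaged 4.31 ± 0.437 in miR-99 KD and 2.73 in Scr (SD, n = 2), where both libraries had 2.73, so it was 1.58 times as high on average. Mthfd2 to Mthfd1l was 0.797 and 0.661 in miR-99 KD and 0.514 and 0.455 in Scr. Asns to Phgdh was 2.59 and 3.85 in miR-99 KD and 1.59 and 1.41 in Scr, 2.14 times as high on average, and Psat1 to Phgdh was 0.802 and 0.970 in miR-99 KD and 0.757 and 0.577 in Scr. In each of these 4 ratios the groups did not overlap. They did overlap for Mthfd2 to Mthfd2l, its close mitochondrial relative, at 9.60 and 6.03 in miR-99 KD and 7.17 and 6.59 in Scr. No ratio was tested.

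**Figure D3:**
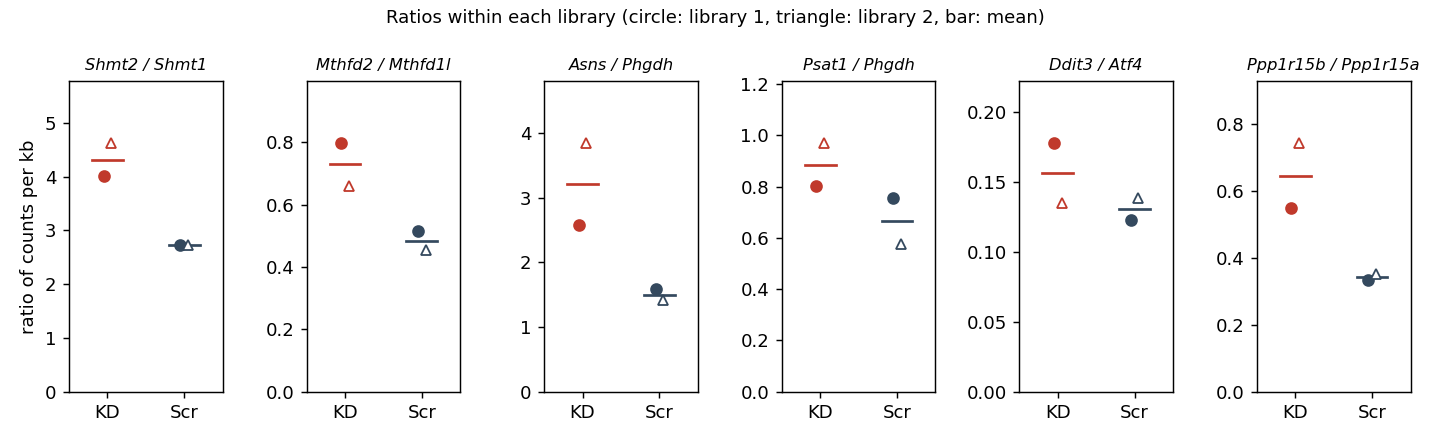
Ratio of 2 genes' counts per kb within each library, for 6 pairs, with miR-99 KD left of Scr, circles for library 1, triangles for library 2, bars at group means and axes from 0. Shmt2 over Shmt1 averages 4.31 in miR-99 KD and is 2.73 in each Scr library, while Ddit3 over Atf4 overlaps.

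Other genes of the programme were taken from lists written with earlier results of these data known. Of 25 further ATF4 targets tested, 7 were higher with groups apart, 3 lower and 15 overlapped, against 24.5% and 26.0% of all genes, and their median log2 difference was 0.12. DESeq2 called 1 higher and 0 lower, against 1.66% and 4.13% of all genes. The one called was Herpud1, a gene of ER protein disposal (DESeq2 adjusted p = 0.032, edgeR adjusted p = 0.232). It had 220 and 171 CPM in miR-99 KD and 126 and 128 CPM in Scr. Nfe2l1, a factor that keeps up proteasome genes, lay the other way, at 81.4 and 55.7 CPM in miR-99 KD and 94.8 and 113 CPM in Scr. Cebpb, a C/EBP factor of myeloid cells and the most abundant gene of this list per kb, was high in miR-99 KD 1 alone, at 215 and 114 CPM in miR-99 KD and 99.9 and 124 CPM in Scr.

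Of 20 aminoacyl-tRNA synthetases, which load tRNAs with amino acids, 7 were higher with groups apart, 2 lower and 11 overlapped. The groups did not overlap in 50.5% of all genes. The median log2 difference of the 20 was 0.07. Over all genes the shares were 24.5% higher and 26.0% lower, against which the serine and purine counts below are also to be read. At an unadjusted edgeR p under 0.05 there were 2, Gars and Rars, both higher, where 5.97% of all genes were higher and 9.63% lower. Gars, for glycine, had 374 and 451 CPM in miR-99 KD libraries and 319 and 296 CPM in Scr, and Rars, for arginine, at 174 and 198 CPM in miR-99 KD and at 141 and 146 CPM in Scr. Neither edgeR nor DESeq2 called any of the 20. Of the 24 other serine and one-carbon genes tested, 9 were higher with groups apart, 4 lower and 11 overlapped, at a median of 0.21. Shmt1 was the only one of these that DESeq2 called, where it called 4.13% of all genes lower. Purine synthesis, which spends one-carbon units, had 5 of 12 genes higher, 2 lower and 5 overlapping, at a median of 0.20. DESeq2 called 0 of the 12 and edgeR 0. By an unadjusted edgeR p under 0.05, 1 of the 12 was lower, near the 9.63% of all genes. That gene was Impdh1, of guanine nucleotide synthesis, at 77.5 and 58.3 CPM in miR-99 KD and 96.5 and 111 CPM in Scr.

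The ER stress genes outside the ATF4 arm, the chaperones and disposal genes under ATF6 and XBP1 with their sensors, held 6 DESeq2 calls. Of 16 genes, 9 were higher with groups apart, 2 lower and 5 overlapped, at a median of 0.23, where 24.5% of all genes were higher and 26.0% lower. DESeq2 called 5 higher and 1 lower, against 1.66% and 4.13% of all genes. edgeR called 0, with 7 higher and 1 lower at an unadjusted p under 0.05, against 5.97% and 9.63% of all genes. The 5 higher were Syvn1, Manf, Hsp90b1, Hspa5 and Xbp1, the last 2 named after their values were seen. Hspa5, the ER chaperone BiP, had 1705 and 1437 CPM in miR-99 KD libraries and 907 and 1082 CPM in Scr. Syvn1, a ubiquitin ligase of ER disposal, had 125 and 123 CPM in miR-99 KD libraries and 73.0 and 80.4 CPM in Scr, with an edgeR adjusted p of 0.204 and a DESeq2 adjusted p of 0.0022. The one lower was Ern1, the sensor IRE1 that activates XBP1, at 15.2 and 12.7 CPM in miR-99 KD and 25.6 and 30.8 CPM in Scr. Of 9 mitochondrial chaperone and protease genes, 4 were higher with groups apart, 0 lower and 5 overlapped. Hspe1, the mitochondrial co-chaperonin, had 80.4 and 130 CPM in miR-99 KD libraries and 60.5 and 61.5 CPM in Scr, and passed neither test.

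**Figure D4:**
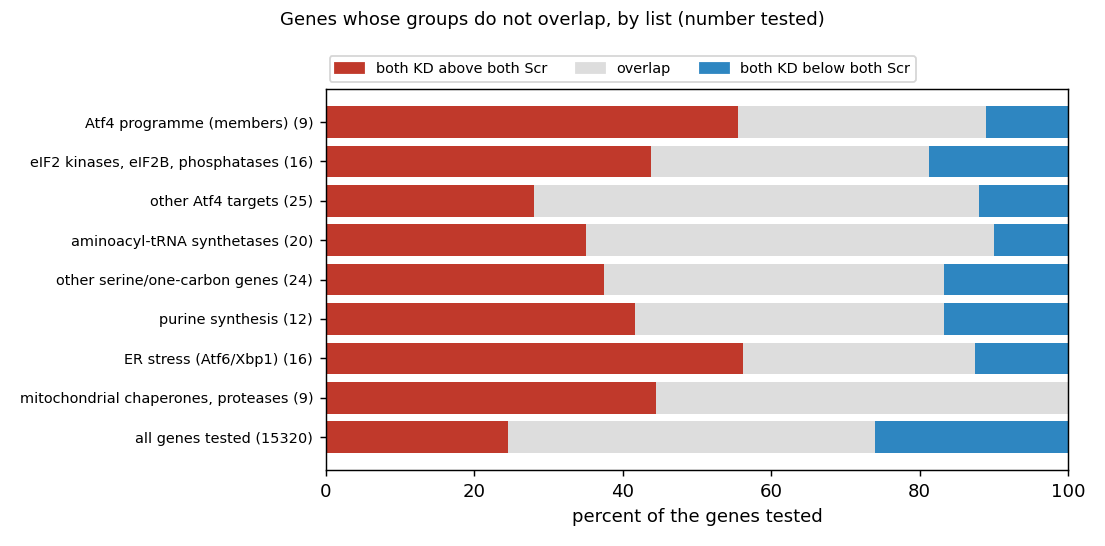
Share of the genes tested in each list, in percent, whose groups do not overlap with miR-99 KD higher (red) or lower (blue), or overlap (grey), with all 15320 genes tested in the bottom bar. The number tested stands beside each list; the 10 genes have 5 of 9 above and 1 of 9 below, against 24.5% and 26.0% over all genes.

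Marker and cell cycle lists are given beside these values, and their part in them was not tested. Over all genes tested, 24.5% were higher and 26.0% lower with groups apart. DESeq2 called 1.66% of all genes tested higher and 4.13% lower. In bulk RNA, fewer cells of a type and less RNA per cell cannot be told apart. Of 15 neutrophil and granulocyte precursor markers all 15 overlapped between the groups and all 15 were highest in miR-99 KD 1, where they summed to 31805 CPM. Their sum was 5745 CPM in miR-99 KD 2, and it was 8914 and 6607 CPM in the Scr libraries. Of 12 B cell markers 6 were higher with groups apart and 6 overlapped. DESeq2 called 3 of the 12 higher and edgeR 0, and all 12 were highest in miR-99 KD 1, at a sum of 336 CPM, with 96.4 CPM in miR-99 KD 2 and 97.4 and 43.4 CPM in the Scr libraries. No gene of either list was at 0 in all libraries. Of the 9 genes tested, 2, Ddit4 and Mthfd2, were also highest in miR-99 KD 1, whereas Atf4 and Asns were highest in miR-99 KD 2. So were 9 of the 25 further ATF4 targets in miR-99 KD 1, with Cebpb and Herpud1, and 6 of the 16 ER stress genes, with Hspa5. Without miR-99 KD 1 the log2 differences of Herpud1, Hspa5 and Xbp1 were 0.43, 0.53 and 0.42, and without miR-99 KD 2 0.80, 0.78 and 0.83. Those of Syvn1, Manf and Hsp90b1 were 0.67, 0.70 and 0.54, and 0.71, 0.69 and 0.51. The 13 stem cell markers had 10 lower in miR-99 KD with groups apart and 1 higher. They summed to 915 and 1129 CPM in miR-99 KD and 2001 and 1995 CPM in Scr. DESeq2 called 7 of the 13 lower and 0 higher. Of 15 erythroid markers 10 were higher with groups apart and 0 lower. They summed to 17028 and 17109 CPM in miR-99 KD and 12255 and 10108 CPM in Scr. DESeq2 called 5 of the 15 higher and 0 lower. edgeR called 0 stem cell and 0 erythroid markers.

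edgeR called 0 genes of the dividing-cell and immediate-early lists. DESeq2 called 3 of 20 DNA replication genes and 2 of 16 mitosis genes higher, and 0 of either lower. It called 5 of 10 immediate-early genes lower and 0 higher. Among all genes tested, DESeq2 called 1.66% higher and 4.13% lower. DNA replication genes had 9 of 20 higher with groups apart and 1 lower, at a median of 0.14. Mitosis genes had 8 of 16 higher and 0 lower, at a median of 0.25. By this measure 24.5% of all genes were higher and 26.0% lower. Of 10 immediate-early genes, which handling and sorting can induce, 8 were lower in miR-99 KD with groups apart and 0 higher, at a median of -0.68. They summed to 2583 and 2886 CPM in miR-99 KD and 4407 and 4738 CPM in Scr. Macrophage and mast cell markers had 0 of 10 and 1 of 6 higher with groups apart and 0 lower in either list, and T and NK cell markers 1 of 5 higher and 2 lower.

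**Figure D5:**
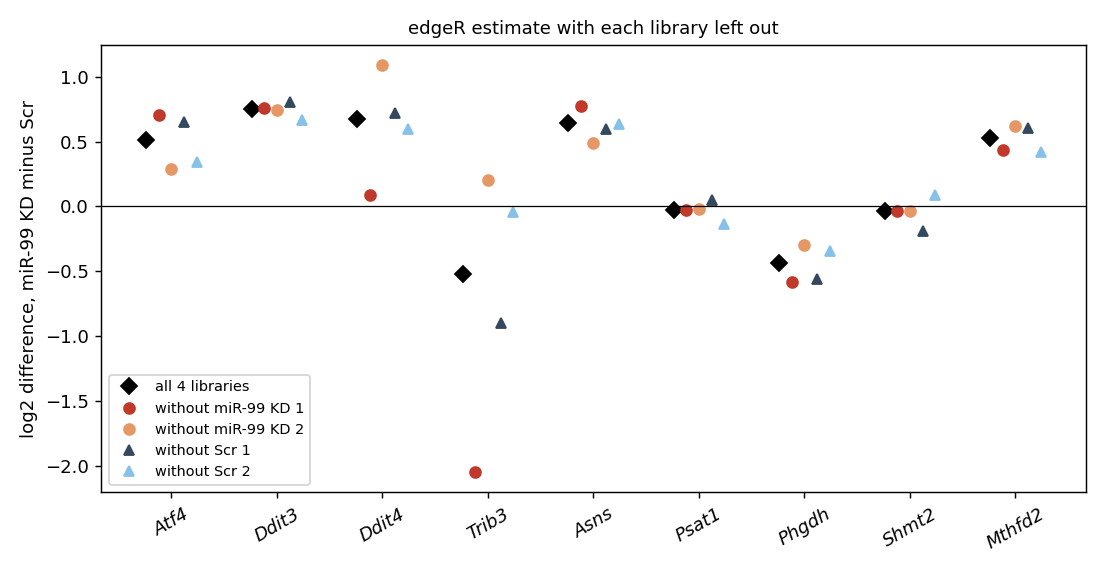
Log2 difference of each of the 9 genes tested, miR-99 KD minus Scr, as estimated by edgeR from all 4 libraries (diamonds) and with each library left out in turn. Ddit3 stays between 0.66 and 0.80 and Asns between 0.49 and 0.78, while Ddit4 and Trib3 move with the miR-99 KD library left out.

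With each library left out, the log2 differences of Atf4, Ddit3, Asns and Mthfd2 remained above 0 and that of Phgdh below 0, as they did under each of the 3 other scalings, the replicate block and both other filters. Atf4 ranged from 0.29 to 0.71, Mthfd2 from 0.42 to 0.62 and Phgdh from -0.58 to -0.30. Psat1, Shmt2 and Trib3 took both signs. The median over the 9 genes, 0.51, ranged from 0.09 (miR-99 KD 1 left out) to 0.60 (Scr 1 left out).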

How the data were processed

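The deposited files hold raw read counts per Ensembl gene, 1 library per file, each from its own sample. The tools named are STAR, Picard, HTSeq and DESeq2, and the build is mm9, per the submitters' processing notes. The sources used here give no versions, order or annotation release. Libraries came from SMARTer amplification of total RNA from sorted cells, per the labels' protocols. Reads with several alignments made up 18.0% to 21.9% of all reads, and reads with no feature 8.31% to 13.8%; neither these nor pasted totals entered library sizes or tests. Whether PCR copies were removed is not stated in those sources.

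Symbols matched 44585 of 45232 rows (GENCODE M21, a later build than mm9, so only RefSeq sequences carry coordinates, on GRCm38.p6). The test was edgeR 4.0.16 in R 4.3.3 (quasi-likelihood, filterByExpr, TMM scaling, Benjamini-Hochberg over all 15320 genes, two-sided, 0.05), without a replicate block. The same fit gave the SE and 95% intervals, and CPM used TMM-scaled library sizes. Copies were sought with blastn 2.17.0. The alternatives were DESeq2 1.42.0, limma-voom (limma 3.58.1), 3 scalings, 2 filters, a replicate block, leaving out 429 mitochondrial, ribosomal, globin, neutrophil and B cell genes before scaling, a 0.10 threshold, and the removal of each library in turn. The steps were run on simulated counts with known changes. Those changes were larger than the differences of the 10 genes and the simulated spread was smaller, so power for such differences was not tested. The genes and lists were chosen with earlier results of these data known. All 10 genes are named; of each other list, up to 4 with the smallest p, the most abundant and fixed pathway counterparts may be, and the text names a part of them. Gm7901 was named after its values were seen. Labels do not say more of replicates than that they came from separate mice, so p-values measure the spread between these libraries. Deviations from the group means correlated at 0.057 between libraries of equal number and at -0.057 between libraries of crossed number. With 2 libraries a group the deviations mirror each other, so these values are a single measure. The libraries were treated as unpaired.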

Additional observations from a re-analysis of the deposited data

How the results depend on the processing

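No cause of a shift was tested. Against 0 genes called by edgeR, DESeq2 called 887, edgeR with no filter 1064, and edgeR with single libraries left out 0 to 1013 (1013 for miR-99 KD 1, 437 for miR-99 KD 2). Of the 9 genes tested, DESeq2 called 2, Asns and Ddit3, edgeR with no filter 1 (10 tested), and edgeR with single libraries left out 0 to 1 (9 or 10 tested); limma-voom, the other scalings and the threshold of 0.10 called 0, as did the 10 CPM filter, under which 7 of the 9 were tested, without Ddit4 and Trib3. With the replicate block edgeR called 0 genes in all and 0 of the 9, so it changed no call. A fit with 1 library left in a group assumes that it varies like the other group. Asns, at a log2 difference of 0.64, had 0.64 with DESeq2, 0.62 with no filter and, with single libraries left out, 0.49 to 0.78, and Ddit3 had 0.75 with DESeq2. Signs turned without single libraries for Trib3 (-2.05 to 0.20), Psat1 (-0.13 to 0.047), Shmt2 (-0.19 to 0.091), Psph (-0.078 to 0.20), Atf5 (-0.55 to 0.27), Atf3 (-1.15 to 0.47), Eif2ak2 (-0.51 to 0.21), Eif2ak4 (-0.35 to 0.24) and Mthfd1 (-0.081 to 0.29), and for Psph also with library totals alone (-0.011). Low counts limit the precision for Chac1, Aldh1l2 and Atf5.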
